A study of Homo sapiens with 4 samples.

Results

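The glucocorticoid receptor gene NR3C1, the mineralocorticoid receptor gene NR3C2, the progesterone receptor gene PGR, the oestrogen receptor genes ESR1 and ESR2, and the oestrogen-related receptor genes ESRRA, ESRRB and ESRRG were examined for accessible chromatin in prostate cancer cells before and after resistance to enzalutamide. These 8 genes, of 20033 protein-coding genes in the GENCODE annotation of hg38, were chosen by name, and every accessible interval in each gene body and in the 100 kb on either side was counted. The windows held 206 of the 149676 intervals of C4-2B and 163 of the 118728 intervals of C4-2BER.

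C4-2B is an androgen-responsive human prostate adenocarcinoma line. C4-2BER is labelled as enzalutamide resistant, and the study describes it as neuroendocrine-like. It was derived from C4-2B and was grown by the authors in the continuous presence of enzalutamide, a drug that blocks androgen signalling. ATAC-seq, an assay that tags open DNA by transposition, was carried out on 2 libraries of each line, and the libraries of a line were merged before peaks were called. Each line therefore has 1 list, differences between the lines were not tested and have no replicate check, and the intervals given with values cover counting error only.

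Steroid receptors are transcription factors that bind a hormone, dissociate from chaperones and occupy DNA as dimers. The glucocorticoid, mineralocorticoid and progesterone receptors recognise nearly the same palindrome, and the glucocorticoid receptor is known as a receptor that can act in prostate cancer cells when androgen signalling is blocked. Oestrogen receptors bind a different palindrome, and the oestrogen-related receptors bind a single extended site without a natural steroid ligand. Several of these genes, NR3C1 and ESR1 among them, are transcribed from alternative first exons.

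From the deposited values, depths of 30.2 M (C4-2B) and 25.2 M reads (C4-2BER) were recovered, if the peak caller used its default human genome size. Read ratios below are C4-2BER over C4-2B, with the reads of each list first divided by its own depth, which multiplies the ratio of reads by 1.20. On this scale the median of all 91274 interval pairs of the genome was 1.11-fold lower in C4-2BER, a log2 of -0.16, with a median of 0.11 at promoters and -0.36 in introns, so single ratios are to be read against that shift. The promoters of the 5 luminal prostate markers had an interval in both lists, with 171 C4-2B and 45 C4-2BER summit reads at KLK3, the gene of prostate-specific antigen. Among neuroendocrine markers, CHGA, SYP and NCAM1 had a promoter interval in both lists, and INSM1 in C4-2BER only.

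Stretches of sequence upstream of receptor start sites are shown first, because the promoters of NR3C1 and ESRRB were those of the 8 genes with the largest C4-2BER to C4-2B ratios. Both are the 250 bases before a RefSeq start site (GRCh38.p14, the hg38 assembly), 5′ to 3′ on the strand of the gene. Capitals mark the bases inside a C4-2BER interval.
NR3C1, chr5:143405356-143405605, minus strand: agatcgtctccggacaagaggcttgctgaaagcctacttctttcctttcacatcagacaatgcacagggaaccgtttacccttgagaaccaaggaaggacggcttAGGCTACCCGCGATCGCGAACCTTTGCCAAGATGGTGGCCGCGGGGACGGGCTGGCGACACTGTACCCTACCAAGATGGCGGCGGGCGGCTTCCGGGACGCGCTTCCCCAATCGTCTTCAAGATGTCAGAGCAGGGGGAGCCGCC
ESRRB, chr14:76375887-76376136, plus strand: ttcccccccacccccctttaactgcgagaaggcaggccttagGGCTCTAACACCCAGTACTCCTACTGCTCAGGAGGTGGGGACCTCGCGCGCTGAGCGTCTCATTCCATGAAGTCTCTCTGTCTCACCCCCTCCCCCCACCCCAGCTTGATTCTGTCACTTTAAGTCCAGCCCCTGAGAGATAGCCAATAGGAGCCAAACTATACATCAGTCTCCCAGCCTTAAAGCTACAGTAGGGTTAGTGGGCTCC
The NR3C1 stretch is 59.6% G or C with 20 CpG dinucleotides, and no C4-2B interval reached it. It lies upstream of both intervals compared in the NR3C1 ratio. The ESRRB stretch is 56.4% G or C with 5 CpG dinucleotides and was reached by an interval of either list.

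Start sites of protein-coding transcripts within 1000 bp of each other were joined into 30 start-site clusters for the 8 genes, and a cluster was called open when an interval lay within 500 bp of one of its start sites. The lists agreed at most receptor promoters: 12 clusters were open in both lists, 1 in C4-2B only, 2 in C4-2BER only and 15 in neither. Over the 35865 clusters of all coding genes, 46.2% were open in both lists, 2.96% in C4-2B only and 4.22% in C4-2BER only, beside the 12, 1 and 2 of 30 counted at the receptors. The cluster with the canonical start site, the one the annotation prefers, was open in both lines at all 8 genes. The 3 clusters open in 1 list had between 11 and 21 summit reads, and none of them reached a −log10 q of 10.

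RefSeq lists 37 promoters for the 8 genes, each running from 250 bases before a start site to 50 after it. Of these, 19 carried an interval in both lists, none in C4-2B only, 6 in C4-2BER only and 12 in neither. The shares over all 35116 RefSeq promoters were 48.9%, 2.24% and 4.84% for the first 3 classes. The 6 promoters reached in C4-2BER only belonged to NR3C1 (2), ESR2 (2), NR3C2 (1) and ESRRB (1), and several of them lie beside a promoter open in both lines, so they are not separate observations.

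**Figure D1:**
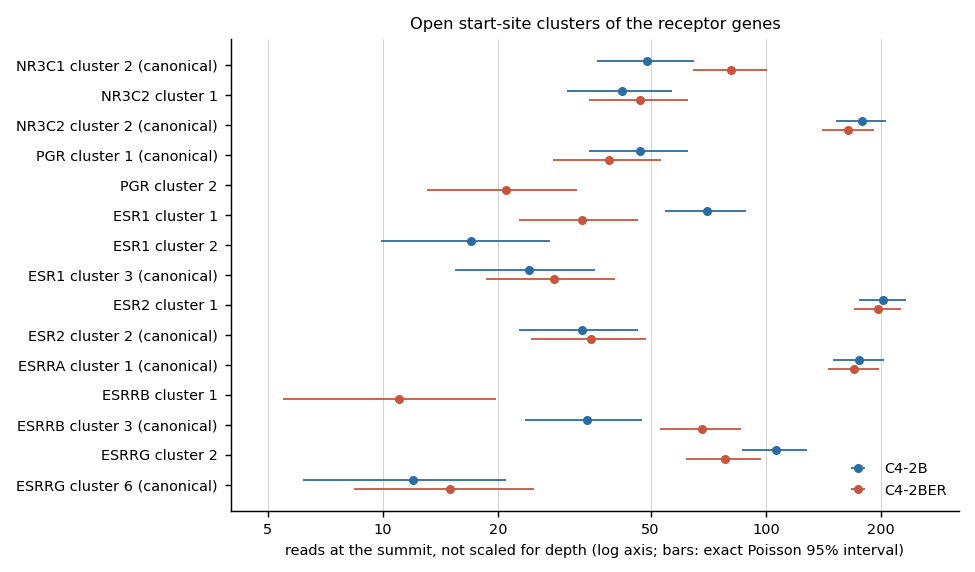
Reads at the strongest summit of each open start-site cluster of the receptor genes, as recovered and without scaling for depth, on a log axis. Bars are exact Poisson 95% intervals of 1 merged list per line, and a missing point means that no interval lay within 500 bp. ESRRB cluster 3 held 34 C4-2B and 68 C4-2BER reads, and NR3C1 cluster 2 held 49 and 81, while NR3C2 cluster 2, ESR2 cluster 1 and ESRRA cluster 1 held 164 or more in both lists.

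NR3C1 lies on the minus strand at chr5:143277931-143435512. Its canonical cluster, at 143402737 to 143405323, joins 9 start sites of alternative first exons that share the coding exons. In C4-2B a single interval at chr5:143403379-143404333 covered 4 of the 9 start sites, with 49 reads at its summit. In C4-2BER 2 intervals lay there and covered 7 of the 9. The first, chr5:143403415-143404973, was 1559 bp wide against 955 bp in C4-2B and held 81 reads. The second, chr5:143405107-143405500, held 53 reads, was absent from the C4-2B list and ends inside the NR3C1 sequence shown above. The accessible stretch of the glucocorticoid receptor promoter thus extended farther upstream in the C4-2BER list.

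The depth-scaled ratio at the NR3C1 promoter was 1.98 (95% interval 1.37 to 2.88), and its rank percentile by −log10 p went from 73.9 in C4-2B to 83.6 in C4-2BER, where 100 is the strongest interval of a list. The summits compared lie 473 bp apart, so the ratio sets different positions of the promoter side by side. The local background at the summit moved with it, from 3.80 reads in C4-2B to 11.7 in C4-2BER. The deposited fold enrichment, which divides by that background, was accordingly lower in C4-2BER, at 6.45 against 10.4. The part of this background in the read ratio was not tested. The start-site cluster of NR3C1 at 143434702 to 143435512, far upstream, and the one at 143400852 to 143401397 had no interval within 500 bp in either list.

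Inside the NR3C1 gene body, 3 intronic intervals of C4-2B were all shared, and C4-2BER had 1 more. The shared interval 47.7 kb downstream of the canonical start, chr5:143355848-143356074 in C4-2B, held 17 reads there and 28 in C4-2BER, a ratio of 1.97 (1.04 to 3.84), and was named after its values were seen. The additional interval of C4-2BER, chr5:143309767-143310319, held 19 reads 93.7 kb downstream. The shared site carries a forkhead match, TGTTTAC on either strand, the letters bound by FOXA1, a pioneer factor of luminal prostate cells. An AP-1 match, TGANTCA on either strand, lies in the same interval at chr5:143355891-143355897. Binding of either factor was not measured. The forkhead match is shown in capitals on the strand of NR3C1, at chr5:143355950-143355956.
NR3C1 intron: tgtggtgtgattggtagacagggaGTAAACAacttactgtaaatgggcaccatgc

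The strongest C4-2B interval of the NR3C1 window lay beyond the 3′ end, inside the neighbouring gene ARHGAP26. This interval, chr5:143182899-143183706, held 109 C4-2B and 45 C4-2BER reads, a ratio of 0.494 (0.341 to 0.705). Next in rank was a site in NR3C1 itself, chr5:143417836-143418755, in an intron 14.5 kb upstream of the canonical start, with 71 and 48 reads and a ratio of 0.809 (0.549 to 1.18), named after its values were seen. Another ARHGAP26 site named after its values were seen, chr5:143222639-143223189, held 82 and 26 reads, a ratio of 0.379 (0.234 to 0.596). The strongest C4-2B-only interval, chr5:143181131-143181663, held 79 reads and is 222.3 kb from the NR3C1 start. Which gene these sites act on was not measured.

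NR3C2, at chr4:148078762-148444698 on the minus strand, had the same start-site clusters open in both lines. Its canonical cluster held 178 C4-2B and 164 C4-2BER reads, ratio 1.10 (0.886 to 1.37), at rank percentiles of 97.5 and 96.7. The upstream cluster at 148444698 held 42 and 47 reads, ratio 1.34 (0.864 to 2.08), and the cluster at 148436860 had no interval near it in either list. An interval upstream of these, chr4:148445236-148445823, which reaches a RefSeq promoter of NR3C2, was present in C4-2BER only, with 61 reads over a background of 18.9 and a −log10 q of 12.2.

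The body of NR3C2 held 14 intronic intervals in C4-2B, of which 7 were shared, and 8 in C4-2BER, of which 7 were shared. Introns over the whole lists also held fewer in C4-2BER, with 56342 C4-2B intervals, 57.0% of them shared, and 41907 C4-2BER intervals, 78.3% of them shared. Over the whole window C4-2B had 30 intervals and C4-2BER 19, and 16 of each were shared. The strongest C4-2B-only interval, chr4:148503707-148504293, lay 61.5 kb upstream and held 46 reads. At the far end of the window, inside ARHGAP10, 3 shared intervals were at least 2-fold lower in C4-2BER, the strongest of them, chr4:148007239-148008220, with 115 and 32 reads, a ratio of 0.333 (0.218 to 0.496), named after its values were seen.

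PGR, at chr11:101029624-101129813 on the minus strand, had its canonical cluster open in both lists with 47 and 39 reads, ratio 0.993 (0.632 to 1.55). A second cluster, at 101127088, was open in C4-2BER only, through an interval 210 bp away, chr11:101127298-101127669, with 21 reads and a −log10 q of 6.35. The PGR-AS1 antisense RNA starts within 1 kb of the canonical cluster, so the interval there cannot be given to PGR alone. The list of C4-2BER was longer than that of C4-2B at PGR and NR3C1 alone among the 8 windows, with 22 intervals against 17 at PGR and 13 against 11 at NR3C1.

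These PGR intervals were weak in C4-2BER, with a median of 15 summit reads against 23 in C4-2B, and 4 of the 22 against 13 of the 17 reached a −log10 q of 10. The whole C4-2BER list was also weaker, with a median of 23 reads against 29 in C4-2B, and 53.7% against 63.8% of intervals reached that value. The strongest C4-2B interval, chr11:101217915-101218546, 88.4 kb upstream of the start, held 73 C4-2B and 25 C4-2BER reads, a ratio of 0.410 (0.249 to 0.653). The strongest C4-2BER interval, chr11:101091855-101092267, lay in an intron 37.8 kb downstream and held 37 reads against 52 in C4-2B, a ratio of 0.851 (0.543 to 1.32). Strongest among the C4-2B-only intervals was an intronic one of 15 reads, chr11:101093115-101093351. A pair inside ARHGAP42, at chr11:100942018-100942806, was the lowest of the PGR window, with 56 and 10 reads, a ratio of 0.214 (0.097 to 0.423), and was named after its values were seen. The upstream site carries a forkhead match at chr11:101218266-101218272, shown in capitals on the strand of PGR.
PGR upstream: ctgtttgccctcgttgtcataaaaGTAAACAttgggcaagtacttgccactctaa

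ESR1, the gene of oestrogen receptor alpha at chr6:151656691-152129619 on the plus strand, had 2 start-site clusters open in both lists and 1 in C4-2B only. The distal cluster at 151690496 had 2 intervals in each list, the stronger with its summit 117.7 kb upstream of the canonical start. This interval held 70 C4-2B and 33 C4-2BER reads, a ratio of 0.564 (0.361 to 0.865), at rank percentiles of 86.3 and 70.7. At the canonical cluster, C4-2B had 2 intervals, the stronger with 24 reads, and C4-2BER had 1 wider interval with 28 reads. This wider interval matched best with the weaker C4-2B interval, of 21 reads. The ratio of that pair was 1.60 (0.874 to 2.96), at rank percentiles of 33.4 and 58.3. Its interval includes 1, so no direction is shown at the canonical cluster. The cluster at 151804431 was open in C4-2B only, through an interval of 17 reads at chr6:151803794-151804137, 294 bp from the start site. The clusters at 151809107 and 151880657 had no interval within 500 bp.

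Both lists had most of the ESR1 window in its introns, with 16 and 15 intervals, 8 of each shared. The strongest interval of either list was the same intronic site, chr6:151763875-151764620 in C4-2B, 43.6 kb upstream of the canonical start, with 89 and 46 reads and a ratio of 0.618 (0.423 to 0.892). Among C4-2B-only intervals, chr6:151658624-151659076 was the strongest with 35 reads, and the strongest C4-2BER-only interval, chr6:151988258-151988506, held 18. The last exons of ESR1 adjoin SYNE1, whose body also contains 1 of the intronic C4-2B intervals.

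ESR2, the gene of oestrogen receptor beta, is annotated at chr14:64084232-64338112 on the minus strand, and the annotated body overlaps SYNE2, a nuclear envelope gene. Of its intronic or exonic intervals, 9 of 15 in C4-2B and 4 of 8 in C4-2BER lie inside SYNE2 as well and cannot be given to ESR2 alone. The upstream cluster at 64338096 to 64338112 was the strongest promoter of the 8 genes, with 202 C4-2B and 196 C4-2BER reads, ratio 1.16 (0.949 to 1.42), at rank percentiles of 99.3 and 99.8. A further annotated gene, ENSG00000214770, starts within 1 kb of it.

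The canonical ESR2 cluster held 33 and 35 reads, ratio 1.27 (0.766 to 2.11). Its C4-2B interval, chr14:64294712-64295179, stopped 302 bp short of the nearest start site, and the C4-2BER interval, chr14:64294087-64295180, covered both. The third cluster, at 64282985 to 64283075, was closed in both lists. The ESR2 window had 30 C4-2B intervals, of which 18 were shared, and 19 C4-2BER intervals, of which 18 were shared. The 1 C4-2BER-only interval, chr14:64266346-64266554, held 13 reads. In C4-2B only, the strongest interval, chr14:64234880-64235242, held 32 reads in an annotated ESR2 exon.

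ESRRA, the oestrogen-related receptor alpha gene, differs from the other 7 in its surroundings. Its body at chr11:64305497-64316743 is 11.2 kb long, 17 other coding genes lie within its window, and 24 of the 34 C4-2B intervals and 18 of the 27 C4-2BER intervals are promoters of those genes. With 16.1 and 12.8 intervals per 100 kb, its window ranked at the 97.0 and 94.1 percentile of all gene windows, while the other 7 ranged from 9.18 to 38.9 in C4-2B and from 7.90 to 61.5 in C4-2BER. The ESRRA promoter itself, 1 interval of 2099 bp in C4-2B and 2173 bp in C4-2BER covering 5 start sites, held 175 and 170 reads, ratio 1.16 (0.936 to 1.44). No other interval of either list overlapped the ESRRA body, and the cluster at 64314284 was closed in both. The strongest interval of both lists in the window was inside CCDC88B, chr11:64342227-64343095 in C4-2B, with 186 and 161 reads. Of the line-only intervals, the strongest of C4-2B, with 98 reads, was at the GPR137 promoter, and the strongest C4-2BER-only interval, with 58 reads, was at the TRPT1 promoter.

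ESRRB, a receptor known for its part in pluripotent cells, had the largest promoter ratio of the 8. Its canonical promoter at 76376137, on the plus strand of a gene at chr14:76310712-76501837, held 34 reads in C4-2B, at chr14:76375957-76376476, and 68 in C4-2BER, at chr14:76375929-76376537. The depth-scaled ratio was 2.39 (1.56 to 3.73), and the rank percentile went from 56.7 to 88.0. The deposited fold enrichment was also higher, at 11.1 against 7.20, a difference of less than 2-fold. The distal start site at 76310712, with ENSG00000258402 starting within 1 kb, was open in C4-2BER only, with 11 reads and a −log10 q of 3.49. The clusters at 76371347, 76407402 and 76439642 had no interval within 500 bp in either list.

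Elsewhere in ESRRB the ratios went both ways. C4-2BER had 14 intronic intervals and C4-2B 10, 9 of each shared. The strongest C4-2B interval, chr14:76387144-76387680, lay in an intron 11.2 kb downstream of the canonical start and held 63 and 42 reads, ratio 0.798 (0.527 to 1.20). Toward the 3′ end, an exonic pair named after its values were seen, chr14:76498132-76498499 in C4-2B, held 59 and 12 reads, a ratio of 0.243 (0.119 to 0.458). The strongest C4-2B-only interval, chr14:76405628-76405939, held 24 reads 29.7 kb downstream, and the strongest C4-2BER-only interval, chr14:76514690-76514960, held 15 reads beyond the gene.

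ESRRG, the longest of the genes at chr1:216503246-217137755 on the minus strand, has 7 start-site clusters, of which 2 were open and were open in both lists. The upstream cluster at 217089605 to 217089806 held 106 C4-2B and 78 C4-2BER reads, ratio 0.880 (0.649 to 1.19). Its summit lies 366.5 kb upstream of the canonical start. The canonical cluster held 12 and 15 reads, ratio 1.50 (0.654 to 3.50). A further interval pair, chr1:217078103-217078714 in C4-2B, at a RefSeq promoter of ESRRG, held 53 and 35 reads, ratio 0.790 (0.50 to 1.23), and was named after its values were seen. Of these promoters the upstream cluster had the most reads in either line.

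The largest difference of all receptor pairs lay in an ESRRG intron. The strongest C4-2B interval of the window, chr1:216902556-216903344, held 150 C4-2B and 18 C4-2BER reads, where the interval was 349 bp wide against 789 bp. The ratio was 0.144 (0.083 to 0.235), or 6.97-fold lower, and the rank percentile went from 99.1 to 48.1. The site is 179.4 kb upstream of the canonical start and therefore between the canonical and the upstream start-site clusters. The 61 bases around its C4-2B summit, chr1:216902831-216902891, are shown on the strand of ESRRG and held none of the 5 motifs searched.
ESRRG intron, lower in C4-2BER: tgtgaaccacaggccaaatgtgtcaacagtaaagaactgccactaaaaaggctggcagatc

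The strongest C4-2BER interval of ESRRG was another intronic site, chr1:216600708-216601503, 122.6 kb downstream of the canonical start, with 75 C4-2B and 86 C4-2BER reads, ratio 1.37 (0.995 to 1.90). It carries a forkhead match at chr1:216600818-216600824, capitalised below. The same gene thus held a strong C4-2B site that was weak in C4-2BER and one that was not. A pair of weak intronic sites named after their values were seen, chr1:217009453-217009742 and chr1:217134592-217135171, had ratios of 2.31 (1.20 to 4.64) and 2.22 (1.12 to 4.60) from 15 and 14 reads in C4-2B. The strongest C4-2B-only interval, chr1:216451857-216452176, held 37 reads, and the strongest C4-2BER-only interval, chr1:217077471-217077710, held 17.
ESRRG intron, strong in both: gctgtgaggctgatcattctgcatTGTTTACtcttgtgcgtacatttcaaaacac

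**Figure D2:**
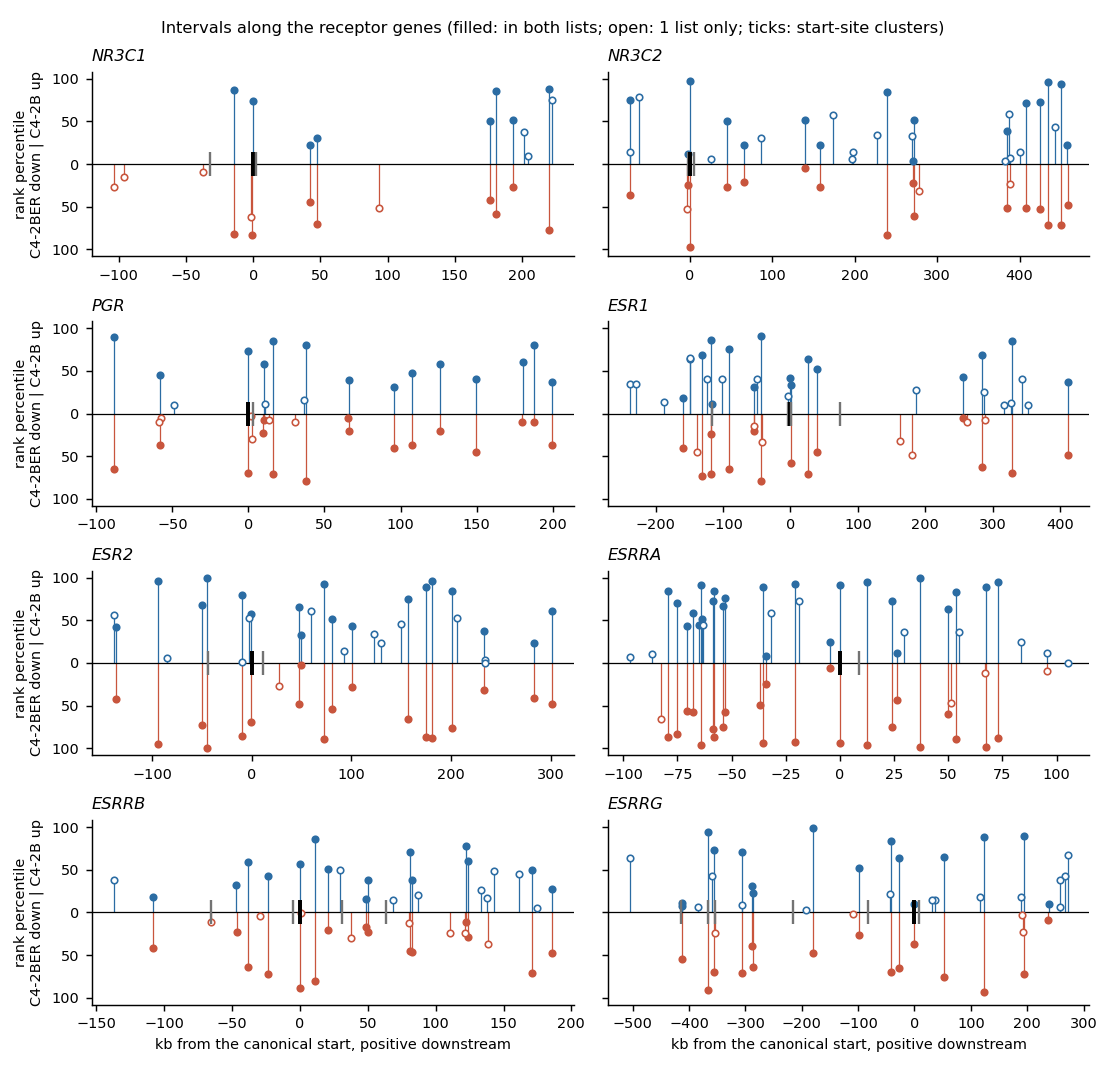
Each interval of the 8 receptor windows by the distance of its summit from the canonical start (kb, positive downstream) and its rank percentile by −log10 p within its own list, with C4-2B drawn upward and C4-2BER downward. Filled points are in both lists, open points in 1 list only, and ticks on the axis are start-site clusters, the canonical one in black. The ESRRG point at the 99.1 percentile, 179.4 kb upstream, faces one at 48.1, and ESRRA stands in the densest window.

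Summed over the 8 windows, 126 of the 206 C4-2B intervals (61.2%, Wilson 95% interval 54.4 to 67.6) and 125 of the 163 C4-2BER intervals (76.7%, 69.6 to 82.5) overlapped the other list. Over the whole lists these shares were 62.3% and 79.2%, both inside those intervals. With the longer C4-2B list shortened to the number of intervals in the C4-2BER list, the order turned, at 157 and 163 window intervals. Of these, 72.6% and 69.9% were shared, and whole-list shares at this setting are not given here. Intronic intervals within the receptor genes were shared in 48 of 82 cases in C4-2B (58.5%, 47.7 to 68.6) and 49 of 69 in C4-2BER (71.0%, 59.4 to 80.4), against 57.0% and 78.3% of all intronic intervals. Line-only intervals were weaker than shared ones, with medians of 18 against 39.5 summit reads in C4-2B and 14 against 28 in C4-2BER. A −log10 q of 10 was reached by 30 of the 80 C4-2B-only intervals and by 6 of the 38 C4-2BER-only intervals. Over the whole lists, 63.8% of all C4-2B and 53.7% of all C4-2BER intervals reached it. The whole-list shares of line-only intervals reaching it are not given here, so these counts are not set apart from the rest of the lists. Of all window intervals that reached it, 76.7% in C4-2B and 92.9% in C4-2BER were shared, near the 77.8% and 92.7% of the whole lists.

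**Figure D3:**
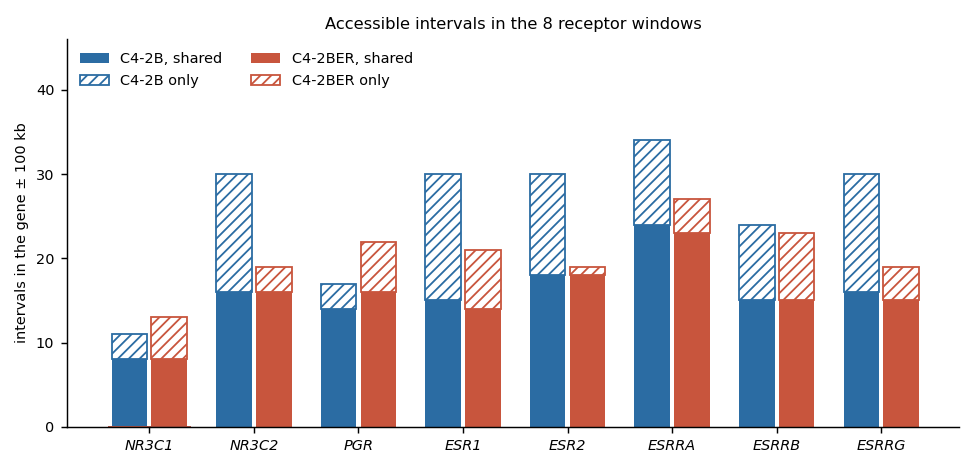
Number of accessible intervals in each receptor gene and 100 kb either side, C4-2B in blue and C4-2BER in red, with filled bars for intervals that overlap the other list and hatched bars for those that do not. ESR2 has 12 C4-2B-only intervals and 1 C4-2BER-only interval, and PGR and NR3C1 are the genes with more intervals in C4-2BER.

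The windows held 122 pairs of intervals that matched each other best between the lists. Of these, 15 (12.3%) were at least 2-fold lower in C4-2BER and 3 (2.46%) at least 2-fold higher, against 13.8% and 2.70% of all pairs of the genome. Their median log2 ratio was -0.10, against -0.16 for all pairs. The 14 pairs at the receptors' own promoters had a median of 0.22, with 1 at least 2-fold higher and none at least 2-fold lower. Of all promoter pairs of the genome, 2.97% were at least 2-fold lower and 3.38% at least 2-fold higher, with a median of 0.11. The 47 pairs in the receptors' own introns had a median of -0.24, with 3 (6.38%) at least 2-fold lower and 2 (4.26%) at least 2-fold higher. Of all intronic pairs of the genome, 19.3% were at least 2-fold lower and 2.14% at least 2-fold higher, with a median of -0.36. The lowest medians were in the exons and introns of neighbouring genes, at -0.71 over 20 pairs, of which 8 were at least 2-fold lower, against 19.3% of intronic and 15.6% of exonic pairs of the genome.

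**Figure D4:**
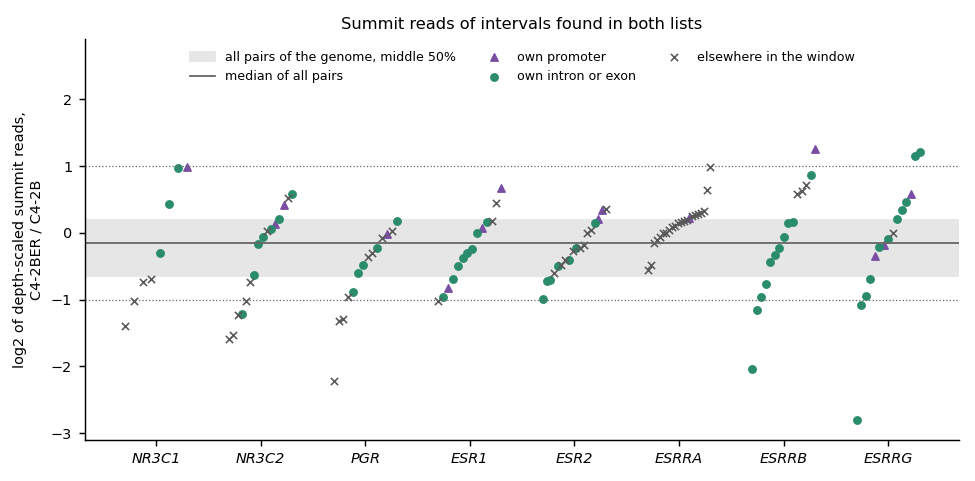
Log2 of the depth-scaled summit reads, C4-2BER over C4-2B, for the interval pairs of each receptor window, ordered within a gene, with triangles at own promoters, circles in own introns or exons and crosses elsewhere. The grey band and line are the middle 50% and the median of all pairs of the genome, and dotted lines mark 2-fold. The ESRRG intronic pair is lowest at -2.80 and the ESRRB promoter highest at 1.26.

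The binding sequences of these receptors were looked for within 100 bp of the summits of the 159 C4-2B and 119 C4-2BER intervals outside promoters. The steroid response element was searched as GNACANNNTGTNC, which reads the same on both strands. It was found at 2 C4-2B intervals (1.26%, 0.346 to 4.47) and at none of C4-2BER (0 of 119, upper limit 3.13%), against 1.74% and 0.651% of all such intervals in the lists. Both sites were C4-2B-only, and counts this small do not separate the windows from the rest of the genome. They are shown on the strand of the receptor gene, with the match in capitals, at chr5:143181382-143181394 and chr14:64296737-64296749.
NR3C1 window, inside ARHGAP26: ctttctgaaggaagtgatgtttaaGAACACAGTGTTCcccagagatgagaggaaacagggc
ESR2 intron: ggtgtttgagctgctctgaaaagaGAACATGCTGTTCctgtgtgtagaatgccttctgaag
The first is in the C4-2B-only interval of 79 reads described above, 16 bp from its summit. The second is in an interval of 31 reads at chr14:64296594-64296892, 2.38 kb upstream of the canonical ESR2 start and 5 bp from the summit.

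The oestrogen response element, GGTCANNNTGACC, was found at no distal interval of either window set, and at 0.027% and 0.023% of all distal intervals of C4-2B and C4-2BER. The element of oestrogen-related receptors, TCAAGGTCA on either strand, was found once, in a C4-2B-only ESR1 intron of 20 reads at chr6:151757801-151758053, against 0.309% and 0.270% of all distal intervals. Its match at chr6:151757887-151757895 is on the minus strand and is shown on the strand of ESR1.
ESR1 intron: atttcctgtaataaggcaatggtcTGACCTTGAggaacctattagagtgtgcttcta
Forkhead matches were more frequent, at 20 of the 159 C4-2B intervals (12.6%, 8.29 to 18.6) and 10 of the 119 C4-2BER intervals (8.40%, 4.63 to 14.8), close to the 11.0% and 8.59% of all distal intervals. None of the 30 distal C4-2BER-only intervals of the windows had one (Wilson upper limit 11.4%), against 6.60% of all distal C4-2BER-only intervals, a difference not detectable with so few. AP-1 matches, TGANTCA on either strand, stood at 16 (10.1%) and 15 (12.6%), against 11.0% and 10.4%. Among the 37 RefSeq promoters none held a steroid, oestrogen or oestrogen-related receptor element, which 0.390%, 0.057% and 0.353% of all RefSeq promoters hold.

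The 8 were set beside the other 40 nuclear receptor genes by whether any start site of a gene had an interval within 2000 bp. All 8 had such an interval in both lists, although 15 of their 30 start-site clusters were open in neither. So had 32 of the 40 others and 14216 of 19689 coding genes measured in this way (72.2%). The others with a promoter interval in C4-2BER only were NR1H4, the bile acid receptor, HNF4A and RXRG, and 5 had none in either list. Of the 19689 coding genes, 869 had one in C4-2BER only and 4206 in neither list. Nearest in the pair of rank percentiles were NR2F1 to NR3C1, NR1H3 to NR3C2, THRA to PGR, RORA to ESR1, RARA to ESR2, NR4A3 to ESRRA, RORB to ESRRB and RARB to ESRRG, among 32 candidates over 2 lists. The distances ran from 0.248 percentile points for NR3C2 to 12.3 for ESRRB, so RORB is not a close neighbour.

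**Figure D5:**
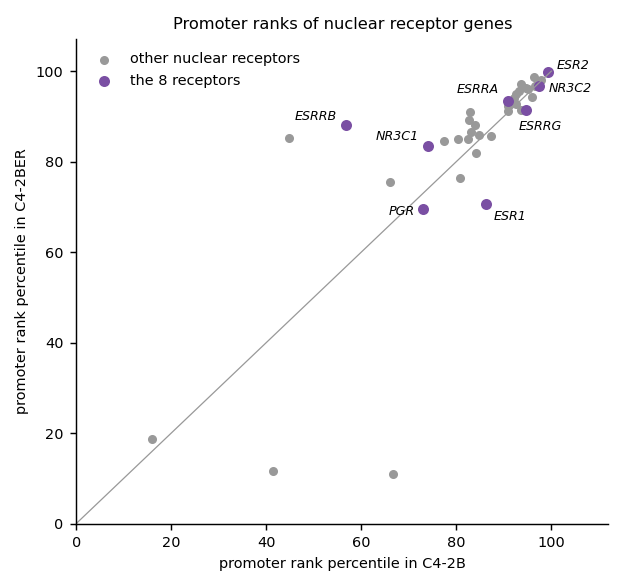
Rank percentile of the strongest promoter interval in C4-2B and C4-2BER for the 8 receptors (purple) and the 32 other nuclear receptor genes with an interval in both lists (grey), with the line of equal rank. ESRRB and NR3C1 lie above the line at 88.0 and 83.6 in C4-2BER, and ESR1, by the interval of its distal cluster, lies below it at 70.7.

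Promoters of genes that act with these receptors were mostly open in both lists. Of 12 genes of the glucocorticoid response and of prereceptor steroid metabolism, 11 had a promoter interval in both lists, and HSD11B1, whose enzyme regenerates cortisol, in neither. None of the 11 differed 2-fold, and FKBP5, a chaperone gene induced by glucocorticoids and androgens, had 155 and 145 reads. All 9 genes of chaperones and coregulators had one in both lists, with none past 2-fold. Of 9 oestrogen response genes 8 had one in both lists, and TFF1, a secreted peptide gene, was more than 2-fold lower, with 100 and 39 reads and a ratio of 0.467. Of 9 coactivators and targets of the oestrogen-related receptors 8 had one in both lists. PDK4, a kinase gene that restrains pyruvate oxidation, had one in C4-2BER only, with 93 reads, as had 869 of 19689 coding genes at any read count. PPARGC1A, the coactivator of these receptors, had 33 and 62 reads, a depth-scaled ratio of 2.25.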

How the data were processed

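Per the labels, ATAC-seq was carried out on 2 C4-2B and 2 C4-2BER libraries. By the study's methods, the authors trimmed paired reads, aligned them to hg38 with Bowtie2, merged the libraries of a line and called peaks with macs2 (version not given in the sources used here; shift printed as 100 without a sign, extension 200 bp). In the deposited lists the fold is a ratio of summit reads to local background, each with 1 added, and the deposited −log10 p and q-values belong to the summit. The deposited score was not used. The remaining deposited column used gives the summit offset.

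Each interval was counted once, with its summit of highest −log10 p. Whole reads and background were solved from fold and −log10 p, for 100% of summits with a largest error of 0.000259, and for 100% of 19951 simulated summits. The lowest background, 2.24 and 1.87 reads per 200 bp, gives the depth for a genome of 2700000000 bp. At most 400 reads fit over a summit, which bounds the strongest values. Lists hold no summit under 8 (C4-2B) or 7 (C4-2BER) reads, so weaker sites are not analysed here.

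Intervals were shared at 1 bp overlap and placed by summit, with promoters within 2000 bp of a start site (GENCODE release 44). Ratios carry exact Clopper-Pearson and shares Wilson 95% intervals. Intervals and ratios describe merged lists, since no test between lines was possible. Named at each gene were the open start-site clusters, the strongest and strongest line-only interval of each list, and body intervals with a receptor element. Of the gene lists, those with a promoter interval in 1 list only were named, apart from some that are not reported here, and others named there or marked so were chosen after their values were seen. Members, lists and settings were chosen with earlier results of these data known. All 8 symbols matched the RefSeq promoter table. Python 3.11.15, numpy 2.4.6, pandas 2.3.3 and scipy 1.17.1 were used.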

Additional observations from a re-analysis of the deposited data

How the results depend on the processing

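No paired analysis was possible because each list pools its line's libraries, which also leaves no replicate to omit. Of 62 values recomputed under 19 alternatives, 41 moved by less than their counting interval or stayed within 1.5 times, and the others are given below. Keeping −log10 q values from 10 up, the windows held 129 C4-2B and 84 C4-2BER intervals, 86.9% of C4-2BER intervals were shared, no start-site cluster was open in 1 list only, and 9 pairs were 2-fold lower and 1 higher. Gene bodies alone held 109 and 97 intervals. The shared share was 53.9% (C4-2B) and 68.1% (C4-2BER) at 50% reciprocal overlap, 76.7% and 92.9% for strong intervals against the whole other list, and 83.4% in C4-2BER with gaps of up to 500 bp. At equal numbers of top intervals, reached by shortening the C4-2B list, the order of the lines turned. The windows then held 157 C4-2B and 163 C4-2BER intervals, with shared shares of 72.6% and 69.9%. With start sites reached within 2000 bp, 6 clusters were open in 1 list only. Centred on the median of all pairs, 7 pairs were 2-fold higher. By the ratio of deposited folds, 6 were 2-fold lower and 0 higher. Steroid response elements numbered 5 in C4-2B within 250 bp of the summit, and 4 in C4-2B and 1 in C4-2BER anywhere in the interval. The cause of these differences was not tested. With the C4-2B list scaled to the C4-2BER depth, 204 of its window intervals remained and 61.8% were shared.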
